A study of Equus caballus with 34 samples.

Results

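The theca wall of horse dominant follicles was compared between the late dominant stage and the preovulatory stage. Members were chosen by title alone: the 5 arrays titled TW PO (developmental stage PreOv, here PO) and the 9 titled TW LD (LateDom, here LD), 14 of the 34 arrays of the series. Each sample was total RNA of Equus caballus theca wall, labelled with Cy3 and hybridised alone to an Agilent array, and all groups share this handling. The labels give no treatment, breed, age or time before ovulation, and the design text speaks of biological replicates without saying which 5 of the 9 LD samples it compared, so all 9 were used. The 5 early dominant theca wall arrays (EarlyDom, ED) shared the estimate of spread, and 5 LD and 5 PO granulosa arrays served to ask which changes differed between the layers.

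The theca is the vascularised outer coat of the follicle. Its steroid-making cells turn cholesterol into androgens under luteinizing hormone, and granulosa cells on the other side of the basement membrane turn these into estrogens. Around ovulation the luteinizing hormone surge is known to switch on transcription factors, EGF-like ligands, prostaglandins, proteases, cytokines and vessel growth, and to bring leukocytes into the wall that later becomes part of the corpus luteum. A theca wall sample holds stroma, steroid-making cells, vessels and blood cells together, and in such bulk RNA fewer cells of a type and less RNA per cell cannot be told apart.

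The label was set beside markers. No levels of the granulosa arrays were compared here, so detection alone does not test the label, and granulosa carry-over was not tested. All 22 theca stromal markers on the list were measured, and PDGFRA, a receptor of theca mesenchyme, CYP17A1, the androgen-making enzyme, and INSL3, a theca hormone, were detected (well above background, as called by the scanner software) on all 14 arrays. The summed level of the theca markers, as log2 of the summed signal over each array's 75th percentile, ran from 7.70 to 8.42 at LD and from 7.89 to 8.17 at PO. Granulosa markers were present in both stages at overlapping summed levels, 5.58 to 6.80 at LD and 6.01 to 6.27 at PO. Of 17 measured granulosa markers 0 rose and 0 fell, at limma adjusted p under 0.05, with 1 at an unadjusted p under 0.05. FSHR, the FSH receptor of granulosa cells, was detected on 3 of 9 LD and 4 of 5 PO arrays. Aromatase CYP19A1 and the inhibin subunits INHA and INHBA, also on the granulosa list, were detected on all 14 arrays. The granulosa count was 1 without PO 2, PO 4, LD 1, LD 6 or LD 9.

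On this chip a gene is read by 60-base probes. Those of 3 genes are shown because leading results rest on them: PENK and NR4A3 were among the strongest risers, and NR0B2 fell in theca while it lay higher at PO in granulosa. Each sequence is the whole probe, 5′ to 3′, in lower case with no stretch marked.

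PENK: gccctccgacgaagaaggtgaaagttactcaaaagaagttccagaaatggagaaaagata

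NR4A3: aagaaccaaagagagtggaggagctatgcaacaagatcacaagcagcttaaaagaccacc

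NR0B2: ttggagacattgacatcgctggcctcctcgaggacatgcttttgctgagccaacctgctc

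The scanner files place the PENK probe at chr9:27163338-27163397, plus strand, the NR4A3 probe at chr25:29063414-29063473, minus strand, and the NR0B2 probe at chr2:27124241-27124300, plus strand, in horse coordinates of a build that the files do not name. Read forward, the PENK and NR4A3 probes each had 2 reading frames without a stop codon and the NR0B2 probe 1.

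Of 26742 features (genes, or probes with no gene name), 4116 changed between the stages at a limma adjusted p under 0.05, which is 15.4% of those tested. There were 2267 higher at PO (8.48%) and 1849 lower (6.91%). With this scaling large changes were mostly rises: beyond 2 log2 units there were 436 higher and 55 lower, and beyond 3 units 98 higher and 8 lower. In 611 features (2.28%) the PO arrays with a value all lay outside the range of the LD arrays with one, and 207 of these were called higher and 318 lower. The median of all features was 0.03. The balance of calls depended on scaling: 1694 higher and 1945 lower with quantile normalization, 1985 and 2703 with median centring, 1489 and 2022 with normexp and 1550 and 2112 in the deposited values. For that reason lists are also given relative to the median of all features under the 5 scalings. Of the 153 called genes named, the fold of 72 moved by over 1.5 times with another scaling, and 0 turned direction. The range of such a gene's log2 change is given with it. Values beside a gene name are log2 changes (PO minus LD) ± SE, and a list's calls in total are those higher and lower together.

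**Figure D1:**
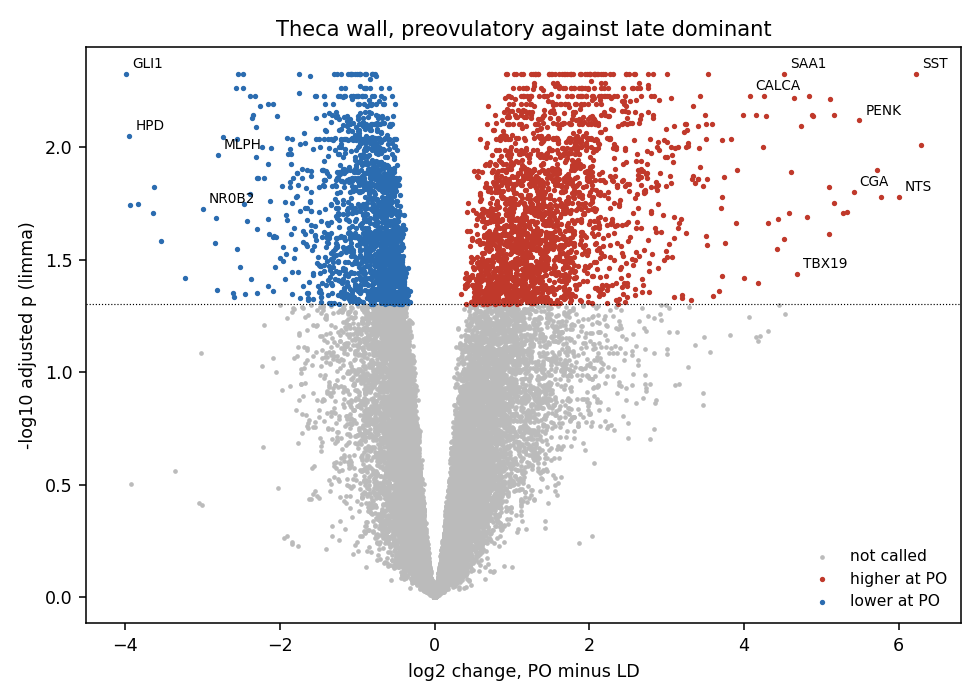
Each point is 1 of 26742 features, with its log2 change (PO minus LD) on the x axis and −log10 of its limma adjusted p on the y axis. Red points are the 2267 features called higher and blue points the 1849 called lower, above the dotted line at 0.05; the farthest point is on the right at 6.29, a probe with no gene symbol, and SST lies at 6.23.

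The 14 arrays were not evenly spread. LD 1 correlated more with the PO arrays (median r = 0.949) than with the other LD arrays (0.937), and so did LD 6 (0.944 against 0.927). Over the 19 theca arrays the leading principal component held 34.7% of the variance, and LD 1, LD 6 and LD 9 lay on the PO side of 0 along it. Without LD 1 and LD 6, left out after the data had been seen, 7226 features were called (3933 higher, 3293 lower). The count was 2072 without PO 1, 2309 without PO 3 and 1316 without PO 5. Slides held arrays of both stages, so slide was also fitted as a fixed block, which left 1767 calls (1131 higher, 636 lower). Within the 5 slides that hold both stages, 85.1% to 99.6% of the called features kept their direction. This share is no independent support, since the features were chosen on the same arrays. On slide 7 (LD 6, LD 7 and PO 4) repeated probes scattered by 15.7% to 25.6%, against 4.73% to 6.80% on the other arrays compared, and without that slide 5055 features were called. Between 68.5% and 82.5% of spots were well above background, and the number of arrays limits the precision. Where a gene was detected on few arrays of its dim stage (at LD SST, SAA, MEDAG, CALCA, AREG, NR4A3, GLI3, TNC, FOXM1, PFKFB3, IRS2 and CLDN1), the size of its change is not exact.

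**Figure D2:**
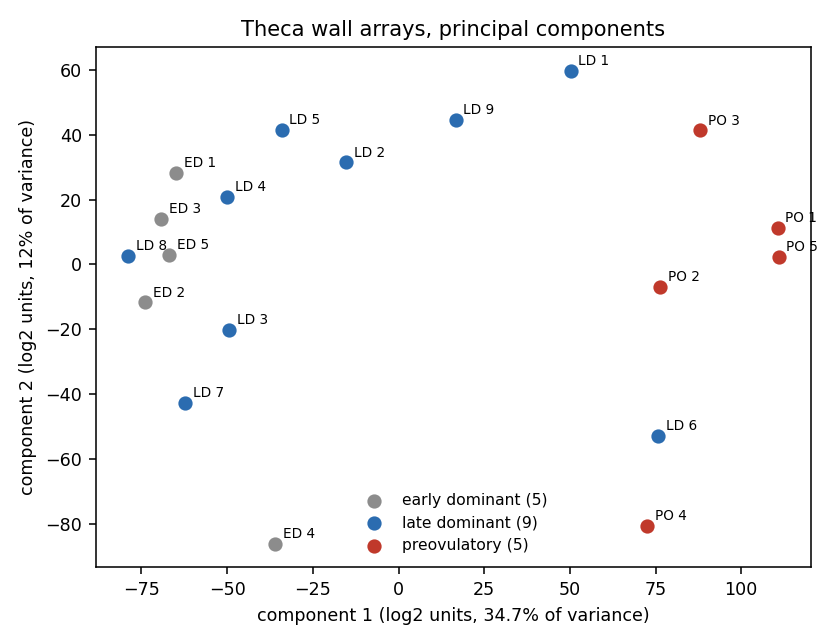
The 19 theca wall arrays on the leading principal components of 23412 features, in log2 units, coloured by stage and named by stage and replicate. The 5 PO arrays lie on the right of component 1 (34.7% of variance), 6 of the 9 LD arrays lie on the left with the ED arrays, and LD 1, LD 6 and LD 9 lie to the right of 0; the 4 arrays lowest on component 2 (12.0%) are PO 4, ED 4, LD 6 and LD 7, all of slide 7.

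Peptide messengers gave the largest rises among genes with a symbol in the theca wall. SST, the gene of somatostatin, a peptide that restrains hormone release, had levels (log2 signal over the array's 75th percentile) of −1.32, −2.40, 0.56, −1.08 and 0.07 on PO arrays 1 to 5, while the LD arrays ran from −9.33 through a median of −7.86 to −3.02. All PO arrays lay above all LD arrays, and the 2 highest LD values were those of LD 1 and LD 6. The rise was 74.9-fold (log2 change 6.23 ± 0.88 SE, limma adjusted p = 0.0047, 5 of 5 PO arrays beyond the LD range). SST was detected on 3 of 9 LD arrays, so this size is not exact, and it ran from 2.71 to 6.23 in log2 over the 5 scalings. PENK, which encodes the precursor of the enkephalin opioid peptides, read 3.24, 2.34, 3.71, 1.32 and 3.86 at PO and from −6.01 through a median of −3.48 to 2.27 at LD. Again LD 1 and LD 6 stood high, and PO 4 was the PO array within the LD range. PENK rose 45-fold (log2 change 5.49 ± 1.13 SE, limma adjusted p = 0.00759, 4.61 to 5.53 over the scalings, 4 of 5 PO arrays beyond the LD range). CALCA, the gene of calcitonin and of the vasodilator CGRP, read −2.95, −4.04, −2.73, −4.01 and −1.42 at PO and from −8.89 through a median of −7.66 to −3.14 at LD. The groups overlapped through LD 6 alone, whose value was above those of PO 2 and PO 4. CALCA rose 16.9-fold (log2 change 4.08 ± 0.77 SE, limma adjusted p = 0.00591, 1.06 to 4.08 over the scalings, 3 of 5 PO arrays beyond the LD range). Its 5 other probes lay at 1.19 to 4.44, so the size of its rise is uncertain.

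NTS, which encodes neurotensin, rose by 6.00 ± 1.51 SE (adjusted p = 0.0166, with values on 5 PO and 8 LD arrays, 3.45 to 6.00 over the scalings) and CGA, the shared alpha subunit of gonadotropins and thyrotropin, by 5.42 ± 1.34 SE (adjusted p = 0.0158, with values on 5 PO and 7 LD arrays, 4.05 to 5.55 over the scalings). In NTS 2 of 5 PO arrays lay beyond the LD range, whose top was LD 1 at 2.43. In CGA no PO array lay beyond the LD range, since LD 1 read 5.44 and the PO arrays at most 4.95. Within slide 1 CGA was lower at PO by 0.50, and LD 6 and LD 7 had no value left. TBX19, a transcription factor of pituitary corticotrophs, rose by 4.69 ± 1.45 SE (adjusted p = 0.0366, 2.79 to 4.69 over the scalings), ALKAL2, a ligand of the receptor kinase ALK, by 4.001 ± 1.25 SE (adjusted p = 0.0379, 2.07 to 4.001 over the scalings), and NPPC, C-type natriuretic peptide, by 2.87 ± 0.64 SE (adjusted p = 0.00995, 1.01 to 2.87 over the scalings). CCK, cholecystokinin, fell by 1.45 on the log2 scale (± 0.46 SE, adjusted p = 0.0401). Of 39 measured peptide hormone and neuropeptide genes, 16 rose and 1 fell, with a median of 1.24, against 8.48% and 6.91% of all features and their median of 0.03. Relative to that median the list lay at 0.42 to 1.21 over the scalings. Peptide calls (43.6% of those tested) numbered 8 higher and 0 lower with slide as a block and 22 higher and 1 lower without LD 1 and LD 6, and in total 9 without PO 5, 10 without PO 1 and 11 without PO 3, and 11 to 17 over the scalings. Of the 9 genes of this group named here, 5 stayed called with slide as a block and 5 with each array left out in turn; 3 calls ended without PO 1, 3 without PO 3 and 3 without PO 5.

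Genes of the ovulatory response came next. NR4A3 and NR4A2 are orphan nuclear receptors that act as immediate early transcription factors. NR4A3 read −1.37, −7.47, −1.55, −2.93 and −0.95 on PO arrays 1 to 5 and from −9.60 through a median of −8.18 to −3.62 at LD. PO 2 lay among the LD arrays, just above the second highest of them, and LD 6 lay far above the other LD arrays. NR4A3 rose 35.8-fold (log2 change 5.16 ± 1.03 SE, limma adjusted p = 0.0072, 4 of 5 PO arrays beyond the LD range). It was detected on 1 of 9 LD arrays, and its log2 change ran from 1.62 to 5.16 over the scalings. NR4A2 read 2.47, −2.25, 2.94, 1.02 and 2.55 at PO and from −4.20 through a median of −3.28 to 1.55 at LD. The same arrays stood out, with PO 2 and PO 4 below LD 6. NR4A2 rose 19.4-fold (log2 change 4.28 ± 0.87 SE, limma adjusted p = 0.00727, 3.48 to 4.28 over the scalings, 3 of 5 PO arrays beyond the LD range).

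EREG and AREG encode epiregulin and amphiregulin, EGF-like ligands that carry the gonadotropin signal between follicular cells. EREG read 1.61, −3.40, 1.41, −1.01 and 1.999 at PO and from −7.36 through a median of −3.50 to 0.49 at LD. PO 2 and PO 4 lay within the LD range, whose top was LD 6. EREG rose 19.9-fold (log2 change 4.31 ± 1.17 SE, limma adjusted p = 0.0216, 2.76 to 4.31 over the scalings, 3 of 5 PO arrays beyond the LD range). AREG rose by 3.74 ± 0.90 SE (adjusted p = 0.0135, 1.198 to 3.74 over the scalings). PTGS2, the inducible prostaglandin synthase, read 0.41, −1.88, 0.92, −0.18 and 0.59 at PO and from −2.76 through a median of −1.71 to −0.995 at LD. PO 1, PO 3, PO 4 and PO 5 lay above every LD array, and PO 2 did not. The rise was 3.35-fold (log2 change 1.75 ± 0.38 SE, limma adjusted p = 0.00913, 4 of 5 PO arrays beyond the LD range). PGR, the progesterone receptor, read 0.04, −1.73, −0.52, −0.84 and −0.03 at PO and from −2.21 through a median of −2.04 to −1.26 at LD. Here too PO 2 was the array inside the LD range. PGR rose 2.38-fold (log2 change 1.25 ± 0.25 SE, limma adjusted p = 0.00743, 4 of 5 PO arrays beyond the LD range).

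Other risers of this kind were ADAMTS1, a matrix protease of the ovulating follicle (3.03-fold, 1.60 ± 0.35 SE, adjusted p = 0.00958), DUSP1 and DUSP2, phosphatases that switch off MAP kinases (1.89 ± 0.34, adjusted p = 0.00544 and 2.24 ± 0.57, adjusted p = 0.0169, 0.96 to 2.24 over the scalings), and the early response gene IER3 (3.07 ± 0.69, adjusted p = 0.0108). TNFAIP3, a brake on NF-kappa-B, rose in all 5 PO arrays beyond the LD range (1.81 ± 0.32, adjusted p = 0.00544, 0.22 to 1.81 over the scalings). The prostaglandin D2 receptor PTGDR (3.70 ± 0.97, adjusted p = 0.0186, 1.68 to 3.70 over the scalings), the prostacyclin synthase PTGIS (1.76 ± 0.58, adjusted p = 0.0476, 0.77 to 1.76 over the scalings) and the prostaglandin exporter ABCC4 (1.65 ± 0.48, adjusted p = 0.0279, 0.72 to 1.65 over the scalings) rose as well. PTGES, the terminal prostaglandin E synthase, did not pass the test (−0.17 ± 0.28 SE, adjusted p = 0.702), and its 4 other probes lay at 1.04 to 1.31, so the probes disagree. Of 28 measured ovulatory cascade genes, 16 rose and 0 fell (median 1.81), and of 30 immediate early and stress genes, 17 rose and 0 fell (median 1.23, all 30 above 0). These lists share genes, NR4A3 among them, so their counts are not separate results. Prostaglandin genes had 5 of 22 higher and 0 lower (median 0.60). Over the scalings the ovulatory list lay 1.14 to 1.83 and the immediate early list 0.99 to 1.30 above the median of all features, and within slides at 0.94 to 2.07 and 0.98 to 1.65. Ovulatory calls (57.1% of those tested) numbered 13 with slide as a block and 20 higher and 1 lower without LD 1 and LD 6, and in total 10 without PO 5. Immediate early calls (56.7% of those tested) numbered 12 with slide as a block and 22 without LD 1 and LD 6, and in total 8 without PO 5 and 10 without PO 3. Prostaglandin calls (22.7% of those tested) numbered 2 with slide as a block and 7 higher and 3 lower without LD 1 and LD 6, and in total 1 without PO 5, 2 without PO 1 or PO 3, 3 without LD 2, LD 5, LD 7 or LD 8 and 8 without LD 6, and 3 to 7 over the scalings. Of the 14 called genes named for this response, 11 stayed called with slide as a block and 8 with each array left out in turn, and 6 calls ended without PO 5.

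**Figure D3:**
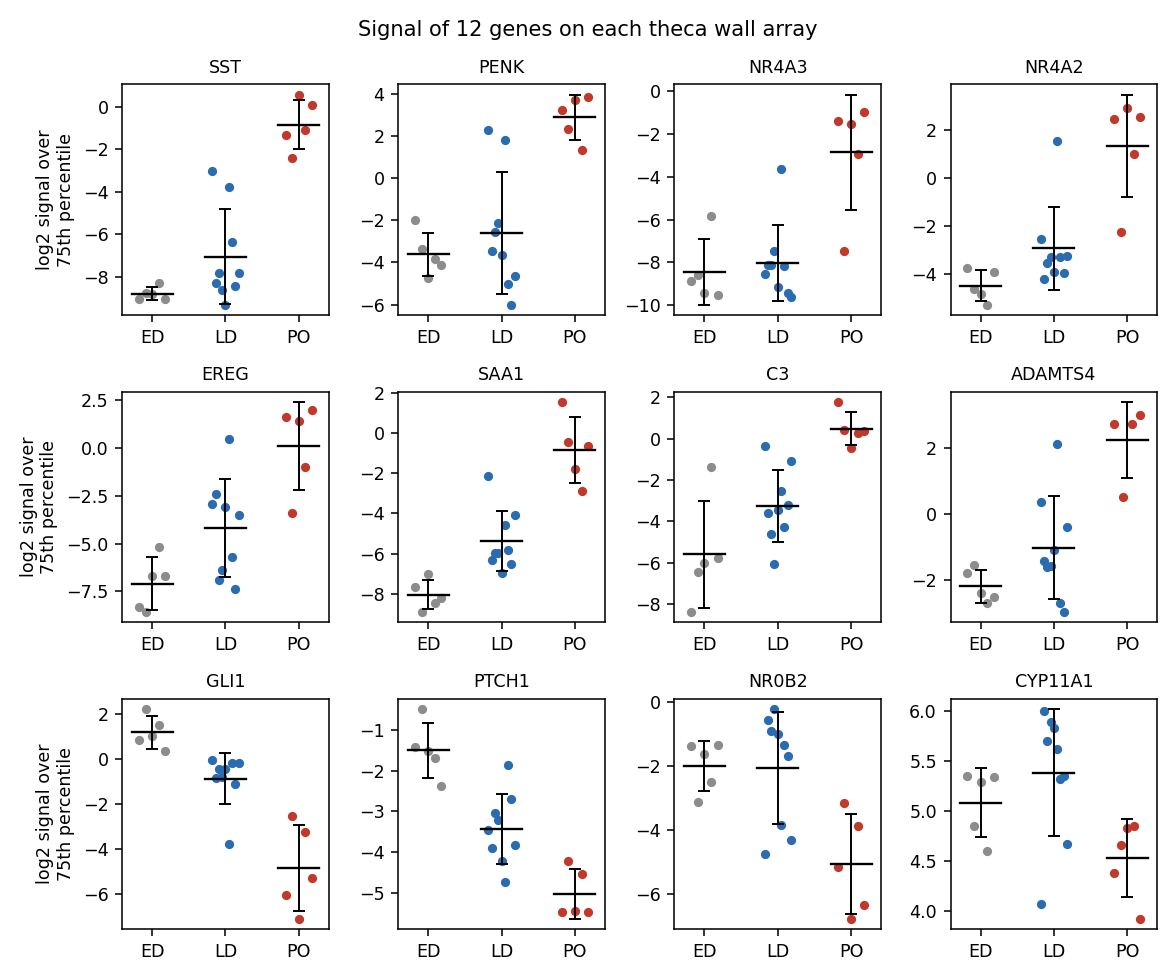
Levels of 12 genes on each theca wall array (y axis, log2 signal over the array's 75th percentile) at ED (5 arrays, grey), LD (9, blue) and PO (5, red), with points for arrays, horizontal lines for means and bars for ± 1 SD. SST separates PO from LD completely, NR4A3 and NR4A2 each have 1 low PO array and 1 high LD array, and GLI1, PTCH1, NR0B2 and CYP11A1 are lower at PO with overlapping groups.

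Acute phase, complement and chemokine genes formed the next group of risers. SAA1, serum amyloid A, an acute phase apolipoprotein, read 1.53, −0.44, −1.80, −2.88 and −0.66 at PO and from −6.94 through a median of −5.95 to −2.16 at LD. PO 4 was the only PO array below the highest LD array, LD 1. SAA1 rose 22.9-fold (log2 change 4.52 ± 0.73 SE, limma adjusted p = 0.0047, 2.54 to 4.52 over the scalings, 4 of 5 PO arrays beyond the LD range). A further probe named SAA rose by 4.64 ± 0.89 SE (adjusted p = 0.00606, 1.69 to 4.64 over the scalings); the SAA genes are near-identical copies, so which of them is read is uncertain. C3, the central complement protein, read 1.77, 0.43, −0.43, 0.25 and 0.35 at PO and from −6.04 through a median of −3.47 to −0.37 at LD. LD 1 and LD 9 were the LD arrays nearest to the PO arrays, and PO 3 lay just inside the LD range. C3 rose 13.1-fold (log2 change 3.72 ± 0.95 SE, limma adjusted p = 0.0167, 2.77 to 3.73 over the scalings, 4 of 5 PO arrays beyond the LD range). CFB, complement factor B, rose by 3.41 ± 0.71 SE (adjusted p = 0.00801, 2.80 to 3.43 over the scalings), and A2M, a broad protease inhibitor of plasma, by 2.61 ± 0.72 SE (adjusted p = 0.0228).

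CXCL8, the neutrophil chemokine interleukin-8, read −1.15, −3.34, −1.99, −2.63 and −1.62 at PO and from −7.74 through a median of −5.36 to −3.03 at LD. Only PO 2 fell inside the LD range, topped by LD 6. CXCL8 rose 9.44-fold (log2 change 3.24 ± 0.68 SE, limma adjusted p = 0.00786, 1.29 to 3.24 over the scalings, 4 of 5 PO arrays beyond the LD range). CXCL6, of the same kind, rose by 3.06 ± 0.75 SE (adjusted p = 0.0144, 0.98 to 3.06 over the scalings) and IL1RN, the interleukin-1 receptor antagonist, by 3.20 ± 1.05 SE (adjusted p = 0.0466, 2.20 to 3.20 over the scalings). CXCL10, an interferon-induced chemokine, fell by 1.85 ± 0.39 SE on the log2 scale (adjusted p = 0.0119, with values on 2 PO and 6 LD arrays, −1.91 to −1.05 over the scalings). Among interferon genes ISG15, a ubiquitin-like modifier, rose by 2.49 ± 0.52 SE (adjusted p = 0.00786), IRF8, a transcription factor of myeloid cells, by 1.73 ± 0.46 SE (adjusted p = 0.0193, 0.80 to 1.73 over the scalings) and TAP1, a peptide transporter of antigen presentation, by 0.79 ± 0.25 SE (adjusted p = 0.0411).

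By list, 15 of 23 complement and acute phase genes rose and 0 fell (median 1.30), 22 of 57 cytokine, chemokine and adhesion genes rose and 1 fell (median 1.03), and 3 of 33 interferon genes rose and 1 fell (median 0.38). The cytokine list shares SAA1 with the complement list and CXCL10 with the interferon list, so the counts are not separate results. Relative to all features these lists lay at 1.000 to 1.43, 0.57 to 1.10 and 0.32 to 0.38 over the scalings, and within slides their medians ran from 0.83 to 1.71, 0.57 to 1.01 and −0.65 to 1.73. Complement calls (65.2% of those tested) numbered 8 with slide as a block and 18 without LD 1 and LD 6, and in total 8 without PO 5 and 9 without PO 1. Cytokine and chemokine calls (40.4% of those tested) numbered 10 higher and 0 lower with slide as a block and 33 higher and 0 lower without LD 1 and LD 6, and in total 10 without PO 5, 13 without PO 1 and 15 without PO 3. Interferon calls (12.1% of those tested, below the 15.4% of all features) numbered 2 higher and 0 lower with slide as a block and 4 higher and 2 lower without LD 1 and LD 6, and in total 1 without PO 5, 2 without PO 1 or PO 3 and 9 without LD 9. Of the 12 genes named in this group, 6 stayed called with slide as a block and 5 with each array left out in turn, and 6 calls ended without PO 5, 5 without PO 1 and 4 without PO 3. Leukocyte markers moved the same way: their summed level ran from 4.19 to 5.53 at LD and 5.04 to 6.40 at PO, 2 of 5 PO arrays above the LD range, and its part in these rises was not tested.

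Of 43 measured leukocyte markers 22 rose and 0 fell, with a median of 1.27. CD2, an adhesion receptor of T and NK cells, read −1.52, −2.13, −3.25, −0.996 and −2.03 at PO and from −5.19 through a median of −4.10 to −2.61 at LD. PO 3 was the PO array inside the LD range, and LD 6 its top. CD2 rose 4.11-fold (log2 change 2.04 ± 0.39 SE, limma adjusted p = 0.00614, 1.16 to 2.04 over the scalings, 4 of 5 PO arrays beyond the LD range). ITGB2, the shared beta chain of leukocyte integrins, read −0.54, −1.87, −1.42, −0.70 and −1.03 at PO and from −3.56 through a median of −2.27 to −1.62 at LD. PO 2 lay inside the LD range. ITGB2 rose 2.54-fold (log2 change 1.35 ± 0.32 SE, limma adjusted p = 0.0129, 4 of 5 PO arrays beyond the LD range). Further risers were ITGAM (1.59 ± 0.34, adjusted p = 0.00908, 0.58 to 1.59 over the scalings) and ITGAX (2.11 ± 0.53, adjusted p = 0.0162, 0.88 to 2.11 over the scalings), integrin chains of myeloid cells, CD14, the lipopolysaccharide co-receptor of monocytes (1.90 ± 0.63, adjusted p = 0.0481, with values on 4 PO and 9 LD arrays), and FCER1A, a chain of the mast cell IgE receptor (2.77 ± 0.83, adjusted p = 0.0327, 1.29 to 2.77 over the scalings).

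The markers measured covered T, NK, myeloid and mast cells, while CD4, CD79A, CD79B, IL7R and MS4A2 were below the background filter and 6 others, PTPRC among them, had no probe of that name. Leukocyte calls (51.2% of those tested) numbered 16 with slide as a block and 28 higher and 1 lower without LD 1 and LD 6, and in total 13 without PO 5 and 14 without PO 1. Within slides the median ran from 0.63 to 1.16, and over the scalings the list lay 0.91 to 1.26 above all features. Of 5 red blood cell genes measured, 1 rose, HBA2, a hemoglobin alpha chain (1.40 ± 0.38, adjusted p = 0.022), whose probe may also read its near-identical paralog. Their summed level ran from −2.03 to 0.97 at LD and −1.12 to 1.05 at PO, and their part in the leukocyte rises was not tested. The red cell count was 0 without PO 3 or PO 5 and 2 without PO 2, LD 1 or LD 6. Among the 7 genes named here 3 stayed called with slide as a block and 3 with each array left out in turn, and 4 calls ended without PO 5.

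Vessel genes rose in part. FGF2, an endothelial growth factor, read 0.78, −1.504, 1.32, 0.13 and 1.86 at PO and from −2.97 through a median of −2.57 to −0.52 at LD. PO 2 lay inside the LD range and LD 1 and LD 6 at its top. FGF2 rose 6.05-fold (log2 change 2.60 ± 0.52 SE, limma adjusted p = 0.00699, 4 of 5 PO arrays beyond the LD range). FGF7, a growth factor for epithelia, rose by 4.81 ± 1.29 SE (adjusted p = 0.0204, 2.07 to 4.81 over the scalings) and FGF9 by 2.97 ± 0.65 SE (adjusted p = 0.0093, 0.91 to 2.97 over the scalings). In FGF7 no PO array lay beyond the LD range, since LD 1 read −0.04 and the PO arrays at most −0.23. Within slide 1 FGF7 was at −0.19, and with slide as a block its limma adjusted p was 0.0842. ADTRP, a regulator of tissue factor inhibition, rose by 4.16 ± 0.84 SE (adjusted p = 0.0072, 1.94 to 4.16 over the scalings). EDNRA, an endothelin receptor of vascular muscle, fell by 0.66 ± 0.22 SE on the log2 scale (adjusted p = 0.0459), and VEGFA, the vascular endothelial growth factor, did not pass the test (0.25 ± 0.17 SE, adjusted p = 0.319).

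SELP, the P-selectin of activated endothelium, read −0.86, −1.16, 0.02, −0.11 and −0.33 at PO and from −4.51 through a median of −3.19 to −1.15 at LD. PO 2 lay within the LD range, narrowly. The rise was 5.06-fold (log2 change 2.34 ± 0.52 SE, limma adjusted p = 0.01, 1.65 to 2.34 over the scalings, 4 of 5 PO arrays beyond the LD range). THBD, thrombomodulin, rose by 2.61 ± 0.49 SE (adjusted p = 0.00619, with values on 5 PO and 8 LD arrays, 1.11 to 2.61 over the scalings), ACKR1, the atypical chemokine receptor of venules, by 3.34 ± 0.80 SE (adjusted p = 0.0134, 2.46 to 3.34 over the scalings), and MMRN1, multimerin, by 2.57 ± 0.78 SE (adjusted p = 0.0334, 1.79 to 2.57 over the scalings). CDH5, the cadherin of endothelial junctions, rose by 1.31 ± 0.33 SE (adjusted p = 0.0169, 0.67 to 1.31 over the scalings). GJA4, a vascular gap junction gene, rose by 1.06 ± 0.36 SE (adjusted p = 0.0498). The pericyte markers MCAM (1.64 ± 0.42, adjusted p = 0.0178), ABCC9 (1.19 ± 0.40, adjusted p = 0.0487, 0.29 to 1.19 over the scalings) and RGS5 (0.81 ± 0.23, adjusted p = 0.0252) rose, while ACTA2, smooth muscle actin, did not pass the test (0.11 ± 0.42 SE, adjusted p = 0.874, with values on 5 PO and 8 LD arrays).

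Endothelial markers had 14 of 39 higher and 0 lower (median 0.95), angiogenic and vasoactive factors 20 of 54 higher and 1 lower (median 0.76), and smooth muscle and pericyte markers 3 of 28 higher and 0 lower (median 0.28). Endothelial calls (35.9% of those tested) numbered 2 with slide as a block and 24 without LD 1 and LD 6, and in total 4 without PO 5, 8 without PO 3 and 23 without LD 1. Angiogenic calls (38.9% of those tested) numbered 8 higher and 1 lower with slide as a block and 29 higher and 1 lower without LD 1 and LD 6, and in total 7 without PO 5. Smooth muscle calls (10.7% of those tested, below the 15.4% of all features) numbered 0 with slide as a block and 8 without LD 1 and LD 6, and in total 0 without PO 5, 1 without PO 1 or PO 3 and 8 without LD 1. Within slides the endothelial median ran from 0.01 to 1.19 and the angiogenic from 0.13 to 1.07; smooth muscle ran from −0.73 to 1.02, negative on slide 1. Over the scalings the 3 lists lay 0.48 to 0.92, 0.30 to 0.73 and 0.16 to 0.31 above all features. The summed endothelial level was 3.18 to 5.08 at LD and 4.62 to 5.24 at PO, with 2 PO arrays above the LD range, and its part in the vascular rises was not tested. Of the 14 genes named for vessels, 5 stayed called with slide as a block and 6 with each array left out in turn; 8 calls ended without PO 5, 6 without PO 1 and 4 without PO 3.

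Matrix genes changed in part. ADAMTS4, a protease that cleaves the proteoglycans versican and aggrecan, read 2.74, 0.53, 2.72 and 3.001 on the 4 PO arrays with a value (PO 1, PO 2, PO 3 and PO 5) and from −2.96 through a median of −1.42 to 2.11 at LD. PO 2 lay inside the LD range, whose top was LD 6. ADAMTS4 rose 9.69-fold (log2 change 3.28 ± 0.71 SE, adjusted p = 0.00958, with values on 4 PO and 9 LD arrays). ADAMTS5, of the same family, rose by 1.77 ± 0.51 SE (adjusted p = 0.0287, 0.41 to 1.77 over the scalings), and PLAUR, the urokinase receptor, by 2.95 ± 0.79 SE (adjusted p = 0.02). The 2 other probes of ADAMTS5 lay at 0.42 to 0.83, and no PO array lay beyond its LD range. LOXL4, an enzyme that crosslinks collagen, fell by 1.05 ± 0.26 SE on the log2 scale (adjusted p = 0.0153). COL14A1 (2.23 ± 0.61, adjusted p = 0.0221, 1.503 to 2.23 over the scalings), tenascin TNC (1.97 ± 0.58, adjusted p = 0.03, 0.31 to 1.97 over the scalings), the hyaluronan link protein HAPLN3 (1.94 ± 0.51, adjusted p = 0.0184, 1.202 to 1.94 over the scalings), fibulin FBLN1 (1.13 ± 0.36, adjusted p = 0.0443) and thrombospondin THBS2 (1.05 ± 0.33, adjusted p = 0.0379) rose, while MFAP2 of elastic microfibrils fell (−1.01 ± 0.27, adjusted p = 0.0195).

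MEDAG, a gene of fat cell differentiation, rose by 4.61 ± 1.10 SE (adjusted p = 0.0128, 1.34 to 4.61 over the scalings). The collagen receptor chain ITGA2 (1.93 ± 0.48, adjusted p = 0.0151, with values on 5 PO and 8 LD arrays) and the junction genes F11R (1.49 ± 0.40, adjusted p = 0.0215, 0.54 to 1.49 over the scalings) and CLDN1 (1.09 ± 0.30, adjusted p = 0.0249, 0.04 to 1.09 over the scalings) rose as well. Counts were 7 higher and 1 lower of 40 proteases and inhibitors (median 0.57), 10 and 1 of 56 collagens and structural genes (0.46), 7 and 0 of 22 integrin subunits (1.06) and 6 and 0 of 27 junction genes (0.41). On slide 1 each of these 4 medians was below 0 (−0.07, −0.47, −0.20 and −0.25), and on the other 4 slides above. Protease calls (20% of those tested) numbered 2 higher and 0 lower with slide as a block and 15 higher and 1 lower without LD 1 and LD 6, and in total 2 without PO 5, 5 without PO 1 or LD 5, 13 without LD 1 and 14 without LD 6. Collagen and structural calls (19.6% of those tested) numbered 3 higher and 0 lower with slide as a block and 17 higher and 2 lower without LD 1 and LD 6, and in total 4 without PO 5 and 19 without LD 1. Integrin calls (31.8% of those tested) numbered 3 with slide as a block and 15 without LD 1 and LD 6, and in total 2 without PO 5, 4 without LD 5, 11 without LD 1 and 12 without LD 6. The integrin list includes leukocyte integrin chains as well, so its count is not one of matrix genes alone. Junction calls (22.2% of those tested) numbered 3 with slide as a block and 8 without LD 1 and LD 6, and in total 1 without PO 5 and 3 without PO 4 or LD 7. Of the 14 genes named for matrix and adhesion, 3 stayed called with slide as a block and 2 with each array left out in turn, and 12 calls ended without PO 5.

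GLI1 fell most among genes with a symbol. GLI1 is a transcription factor and target of hedgehog signalling, which granulosa cells send to theca in the mouse, and PTCH1 and HHIP are targets that restrain the pathway. GLI1 read −6.06, −2.53, −7.11, −3.26 and −5.29 on PO arrays 1 to 5 and from −3.76 through a median of −0.45 to −0.02 at LD. Of the LD arrays 8 lay close together and LD 6 lay far below them, inside the PO range. GLI1 fell 15.8-fold (log2 change −3.99 ± 0.68 SE, adjusted p = 0.0047, −4.10 to −2.53 over the scalings, 3 of 5 PO arrays beyond), and within slides it was at −6.04, −2.08, −6.49, −1.29 and −5.11. The LD arrays, shared with the step before, were themselves at −2.06 against ED (limma adjusted p = 0.188). The 5 other GLI1 probes lay at −4.68 to −1.60 (PO minus LD), so the size of its fall is uncertain.

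PTCH1 read −5.48, −4.22, −5.44, −4.53 and −5.48 at PO and from −4.73 through a median of −3.47 to −1.85 at LD. PO 2 and PO 4 lay inside the LD range. PTCH1 fell 3.01-fold (log2 change −1.59 ± 0.40 SE, adjusted p = 0.0158, −1.84 to −0.81 over the scalings). Its 6 other probes lay at −1.62 to 0.78 and so disagree. HHIP read −5.67, −6.24, −6.60, −5.54 and −5.54 at PO and from −5.39 through a median of −4.45 to −1.91 at LD, with no overlap. HHIP fell 3.62-fold (log2 change −1.86 ± 0.52 SE, adjusted p = 0.0242, −2.16 to −0.74 over the scalings). DHH, the desert hedgehog ligand, fell by 1.24 ± 0.38 SE (adjusted p = 0.036, −1.49 to −0.44 over the scalings), and GLI3, another GLI factor, rose by 1.85 ± 0.50 SE (adjusted p = 0.0212, 0.18 to 1.85 over the scalings). In all 1 of 12 hedgehog genes rose and 4 fell (median −0.52). Hedgehog calls (41.7% of those tested) numbered 0 higher and 2 lower with slide as a block and 1 higher and 5 lower without LD 1 and LD 6, and in total 1 without PO 5, 3 without PO 1 or PO 3 and 8 without PO 2, and 2 to 5 over the scalings. Within slides the median ran from −1.49 to 0.60, above 0 on slide 4, and over the scalings from −0.71 to −0.25 relative to all features. Of 22 theca stromal markers, which share these 3 targets, 1 rose and 4 fell (median −0.24). NR2F2, a nuclear receptor of stroma, was the further faller (−0.80 ± 0.25, adjusted p = 0.0372), with another probe at 0.11. PDGFRA did not pass the test (0.83 ± 0.28 SE, adjusted p = 0.0535). Theca marker calls (22.7% of those tested) numbered 0 higher and 3 lower with slide as a block and 2 higher and 4 lower without LD 1 and LD 6, and in total 1 without PO 5, 2 without PO 3 and 3 without PO 1, LD 3, LD 4, LD 7 or LD 8. Of the 6 called genes named here, 3 stayed called with slide as a block and 1, GLI1, with each array left out in turn; 5 calls ended without PO 5 and 3 each without PO 1 and PO 3.

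In the steroid pathway 5 of 24 genes fell (20.8%, against 6.91% of all features) and 0 rose. CYP11A1, which cleaves the cholesterol side chain, read 4.38, 4.66, 4.83, 4.85 and 3.92 at PO and from 4.07 through a median of 5.62 to 6.00 at LD. LD 1 lay below 4 of the 5 PO arrays, so the groups overlapped. CYP11A1 fell 1.81-fold (log2 change −0.86 ± 0.28 SE, adjusted p = 0.0463), with the slide block at adjusted p = 0.131. It was saturated on 2 of 9 LD arrays, so the size is not exact. FDXR, its electron donor's reductase, fell by 1.38 ± 0.43 SE on the log2 scale (adjusted p = 0.0389), CYB5A, a helper of CYP17A1, by 1.23 ± 0.33 SE (adjusted p = 0.0225, with values on 4 PO and 9 LD arrays) and HSD17B4, a peroxisomal dehydrogenase, by 0.86 ± 0.22 SE (adjusted p = 0.0213, with values on 4 PO and 7 LD arrays). NR5A1, the nuclear receptor SF-1 that drives steroid enzymes, read −3.31, −3.12, −3.18, −2.69 and −3.74 at PO and from −3.16 through a median of −1.29 to −0.85 at LD. LD 1, LD 6 and LD 9 lay with the PO arrays. NR5A1 fell 2.65-fold (log2 change −1.41 ± 0.39 SE, adjusted p = 0.025), with the slide block at limma adjusted p = 0.0884. Its 5 other probes lay at −1.53 to −0.21, so the size is uncertain. NR0B2, the repressor SHP, which holds back NR5A receptors, read −5.17, −3.15, −6.78, −3.87 and −6.33 at PO and from −4.76 through a median of −1.34 to −0.22 at LD. The same 3 LD arrays lay in the PO range. NR0B2 fell 7.95-fold (log2 change −2.99 ± 0.78 SE, adjusted p = 0.0188, −3.14 to −1.80 over the scalings).

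The other fixed steroid and hormone genes did not pass the test. STAR, which moves cholesterol into mitochondria, read 4.996, 3.84, 4.95, 5.40 and 4.19 at PO and from 4.11 through a median of 5.24 to 5.86 at LD, overlapping groups (−0.50 ± 0.30 SE, adjusted p = 0.251). CYP17A1 was saturated on 8 of 9 LD and 3 of 5 PO arrays, so its value (−0.30 ± 0.18 SE, adjusted p = 0.238) could miss a difference. HSD3B2, whose probe belongs to a family of near-identical genes, was at 1.18 ± 1.15 SE (adjusted p = 0.497). Aromatase CYP19A1 was at −0.94 ± 0.99 SE (adjusted p = 0.535), LHCGR, the luteinizing hormone receptor, at −1.11 ± 0.67 SE (adjusted p = 0.258) and INSL3 at −0.39 ± 0.28 SE (adjusted p = 0.357). INSL3 had 1 other probe, at −1.40, so the size of its change is uncertain. FSHR (0.12 ± 0.65 SE, adjusted p = 0.92), the inhibin subunits INHA (−0.38 ± 0.39 SE, adjusted p = 0.523) and INHBA (0.09 ± 0.53 SE, adjusted p = 0.919) and NR5A2 (1.24 ± 0.42 SE, adjusted p = 0.0507) were not called either. HSD11B1, which makes active glucocorticoid, was at 2.33 ± 0.88 SE (adjusted p = 0.0766).

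Cholesterol genes moved both ways. The synthesis genes MVD (−0.96 ± 0.21, adjusted p = 0.00959), FDFT1 (−0.92 ± 0.20, adjusted p = 0.00919) and EBP (−0.83 ± 0.25, adjusted p = 0.0317) and the sterol sensor SCAP (−0.82 ± 0.23, adjusted p = 0.024) fell. The sterol exporter ABCG1 rose (1.37 ± 0.36, adjusted p = 0.018, 0.67 to 1.37 over the scalings). Glucocorticoid response genes also split: FKBP5 (0.88 ± 0.22, adjusted p = 0.0169) and PER1 (1.501 ± 0.42, adjusted p = 0.0244) rose and TSC22D3 fell (−1.54 ± 0.31, adjusted p = 0.00744). Counts were 0 higher and 5 lower of 24 steroid genes (median −0.55), 2 and 6 of 38 cholesterol genes (−0.34), 3 and 1 of 11 glucocorticoid genes (0.68) and 1 and 2 of 18 gonadotropin, nuclear and prolactin receptors (−0.16). Steroid calls (20.8% of those tested) numbered 1 with slide as a block and 7 without LD 1 and LD 6, and in total 1 without PO 5, 2 without PO 3, 3 without PO 1, LD 2, LD 3, LD 4, LD 5, LD 7 or LD 8 and 8 without LD 1, and 2 to 5 over the scalings. Cholesterol calls (21.1% of those tested) numbered 1 higher and 2 lower with slide as a block and 4 higher and 11 lower without LD 1 and LD 6, and in total 2 without PO 5, 3 without PO 1 and 13 without LD 1. Glucocorticoid calls (36.4% of those tested) numbered 1 higher and 1 lower with slide as a block and 6 higher and 3 lower without LD 1 and LD 6, and in total 7 without LD 1 and 8 without LD 6. Receptor calls (16.7% of those tested, near the 15.4% of all features) numbered 1 higher and 0 lower with slide as a block and 3 higher and 4 lower without LD 1 and LD 6, and in total 1 without PO 3 or PO 5, 5 without LD 1 and 6 without LD 6. On slide 1 the steroid and cholesterol medians were above 0 (0.31 and 0.61) and on the other 4 slides below. Of the 14 called genes named in this group, 4 stayed called with slide as a block and 4 with each array left out in turn; 10 calls ended without PO 5, 7 without PO 1 and 6 without PO 3.

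Of the 35 lists, the largest share of fallers was in the mitochondrial respiratory chain, whose complexes pass electrons to oxygen and make ATP. Of 56 measured subunit genes, 27 fell and 0 rose, 48.2% called against 6.91% lower among all features, and 52 had a change below 0 (median −0.47). NDUFS3, a core subunit of complex I, read 1.59, 2.10, 1.61, 1.58 and 1.49 on PO arrays 1 to 5 and from 2.15 through a median of 2.55 to 2.76 at LD. Every PO array lay below every LD array. NDUFS3 fell 1.75-fold (log2 change −0.81 ± 0.14 SE, adjusted p = 0.0047). NDUFS6 (−0.84 ± 0.23, adjusted p = 0.0217) and NDUFA9 (−0.72 ± 0.16, adjusted p = 0.01) of complex I and SDHA, the catalytic subunit of complex II (−0.74 ± 0.20, adjusted p = 0.0205), fell by like amounts. These are small changes, under 1 log2 unit, and the list lay −0.50 to −0.29 relative to the median of all features over the scalings, with 16 to 36 members lower. Respiratory chain calls (48.2% of those tested) numbered 8 lower and 1 higher with slide as a block and 35 lower and 1 higher without LD 1 and LD 6, and in total 5 without PO 5, 14 without PO 1, 15 without LD 4 or LD 5, 16 without PO 3 and 17 without LD 2, and 17 to 36 over the scalings. Within all 5 slides the median was below 0 (−0.68 to −0.18).

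Proteasome subunits, which build the protein-degrading particle, had 10 of 36 lower and 0 higher (median −0.43). PSMD14, its deubiquitinase, read 2.48, 2.51, 2.27, 2.14 and 2.19 at PO and from 2.52 through a median of 3.004 to 3.52 at LD, without overlap. PSMD14 fell 1.62-fold (log2 change −0.70 ± 0.16 SE, adjusted p = 0.0118). PSMC5 (−0.55 ± 0.13, adjusted p = 0.0138, with values on 5 PO and 8 LD arrays), PSMA3 (−0.60 ± 0.18, adjusted p = 0.0373, with values on 4 PO and 9 LD arrays) and PSMD1 (−0.59 ± 0.18, adjusted p = 0.0361, with values on 3 PO and 8 LD arrays) fell too. Of 28 antioxidant genes 9 fell and 3 rose (median −0.38). Glutathione reductase GSR (−1.10 ± 0.22, adjusted p = 0.00746), heme oxygenase HMOX1 (−1.05 ± 0.26, adjusted p = 0.0156), GPX8, a peroxidase of the endoplasmic reticulum (−0.90 ± 0.16, adjusted p = 0.00544, with values on 5 PO and 8 LD arrays), and the transferase GSTM3 (−0.89 ± 0.25, adjusted p = 0.025) fell, with all 5 PO arrays beyond the LD range in GSR and GPX8. GSTA1 (2.50 ± 0.77, adjusted p = 0.0368), the secreted peroxidase GPX3 (1.58 ± 0.42, adjusted p = 0.0192) and SOD2, the mitochondrial superoxide dismutase (1.02 ± 0.31, adjusted p = 0.0391, with values on 3 PO and 7 LD arrays), rose.

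The proteasome list lay −0.46 to −0.24 and the antioxidant list −0.41 to −0.19 relative to all features over the scalings. Proteasome calls (27.8% of those tested) numbered 2 with slide as a block and 16 without LD 1 and LD 6, and in total 2 without PO 3, PO 5 or LD 5, 3 without PO 1, LD 2 or LD 4, 5 without PO 4 and 6 without LD 3, and 5 to 15 over the scalings. Antioxidant calls (42.9% of those tested) numbered 1 higher and 2 lower with slide as a block and 3 higher and 13 lower without LD 1 and LD 6, and in total 3 without PO 5, 4 without PO 3 and 6 without PO 1, LD 4 or LD 5, and 7 to 13 over the scalings. Cytosolic ribosomal protein genes had 0 of 68 called by limma (25 at an unadjusted p under 0.05), with all 68 below 0 and a median of −0.33, a direction that flipped under other scalings (relative to all features −0.36 to 0.05). RPL31, the member with the smallest p, was at −0.40 ± 0.14 SE (adjusted p = 0.0545), and the count was 1 without LD 1 or LD 7, 2 without LD 8 and 14 without LD 9, and 8 lower with median centring. Within slide 9 the median was 0.33. Of the 15 genes named for mitochondria, proteasome and antioxidants, 7 stayed called with slide as a block and 6 with each array left out in turn; 8 calls ended without PO 5, 6 without PO 3 and 5 without PO 1.

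**Figure D4:**
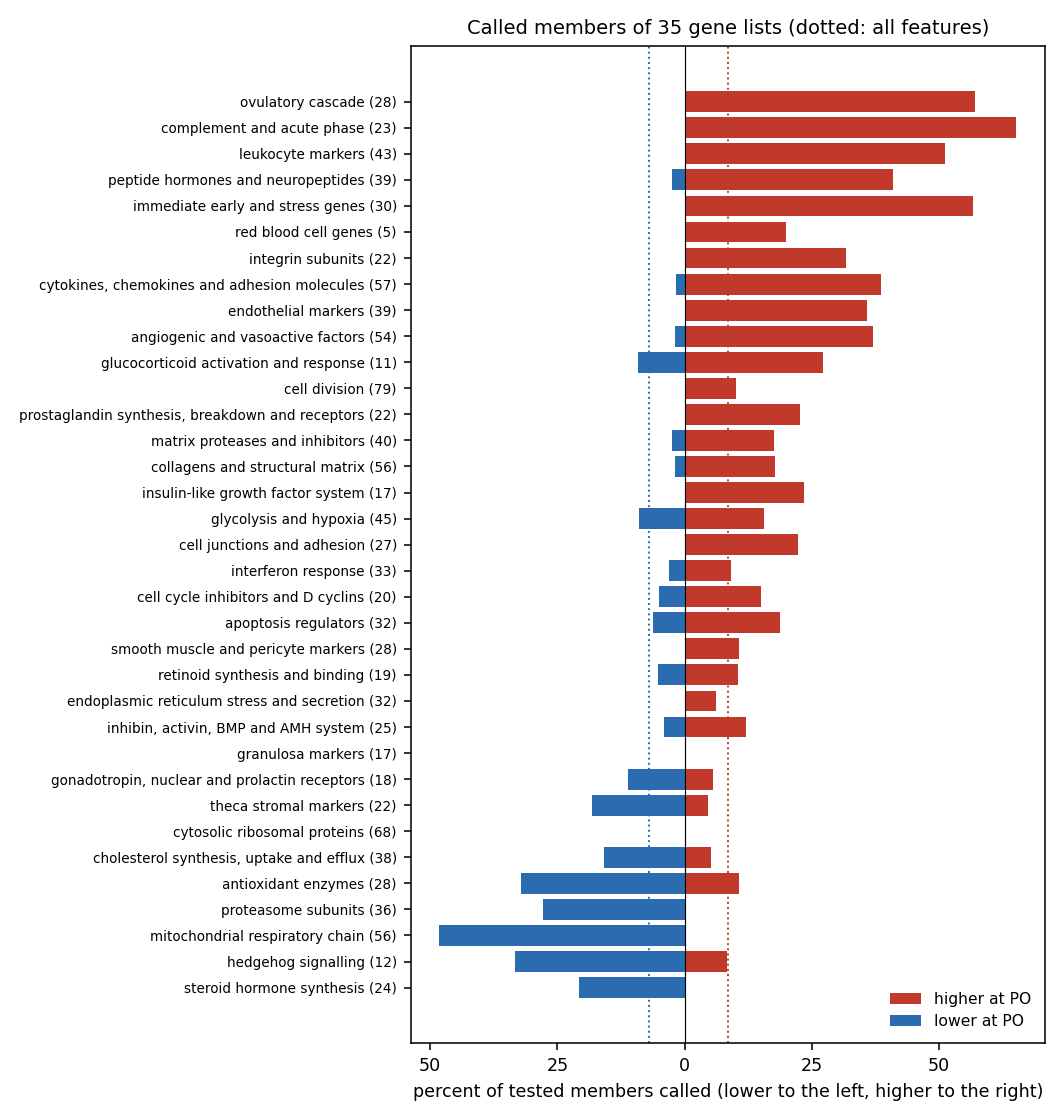
For each of 35 gene lists (number of measured genes in brackets), the percent of measured members called higher (red, right) and lower (blue, left) at PO, ordered by median log2 change from top to bottom. Dotted lines mark the shares of all features, 8.48% higher and 6.91% lower; complement and acute phase, the ovulatory cascade and immediate early genes reach farthest to the right and the mitochondrial respiratory chain farthest to the left, while granulosa markers and ribosomal proteins have no called member.

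Cell division genes had 8 of 79 higher (10.1%, near the 8.48% of all features) and 0 lower. Their median was 0.65. MKI67, a marker of cycling cells, read −2.23, −2.48, −2.73, −2.21 and −2.43 at PO and from −5.27 through a median of −3.33 to −2.75 at LD. The groups did not overlap, LD 1 being nearest. MKI67 rose 2.37-fold (log2 change 1.24 ± 0.35 SE, limma adjusted p = 0.0254, 5 of 5 PO arrays beyond the LD range). RACGAP1, of the cytokinesis machinery (1.59 ± 0.33, adjusted p = 0.00746, 0.96 to 1.59 over the scalings), FOXM1, a mitotic transcription factor (1.27 ± 0.40, adjusted p = 0.0376, 0.09 to 1.27 over the scalings), and CDCA5, a cohesin protector (1.40 ± 0.34, adjusted p = 0.0143, 0.25 to 1.40 over the scalings), rose as well. Some cycle inhibitors rose too: CDKN1A, the inhibitor p21 (1.43 ± 0.38, adjusted p = 0.0195, 0.34 to 1.43 over the scalings, all 5 PO arrays beyond), BTG1 (1.28 ± 0.34, adjusted p = 0.0189) and RB1 (0.87 ± 0.18, adjusted p = 0.00755, all 5 beyond), while CCND3, a D cyclin, fell (−0.71 ± 0.17, adjusted p = 0.0136). Of 20 cycle inhibitors and D cyclins 3 rose and 1 fell (median 0.36). Cell division calls (10.1% of those tested, below the 15.4% of all features) numbered 2 with slide as a block and 33 without LD 1 and LD 6, and in total 1 without PO 5, 3 without PO 1 or PO 4, 4 without PO 3 or LD 8, 5 without LD 3 or LD 7, 19 without LD 6 and 23 without LD 1, and 5 to 8 over the scalings. Calls among cycle inhibitors and D cyclins (20% of those tested) numbered 2 higher and 1 lower with slide as a block and 5 higher and 2 lower without LD 1 and LD 6, and in total 1 without PO 5 and 7 without PO 2 or LD 6, and 4 to 8 over the scalings.

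Growth factor genes changed singly. IRS2, an adaptor of the insulin and IGF receptors, read −4.08, −5.64, −3.91, −5.61 and −4.002 at PO and from −8.51 through a median of −7.71 to −5.87 at LD, without overlap. IRS2 rose 6.12-fold (log2 change 2.61 ± 0.46 SE, limma adjusted p = 0.00544, 0.50 to 2.61 over the scalings, 5 of 5 PO arrays beyond the LD range). The binding proteins IGFBP3 (2.59 ± 0.85, adjusted p = 0.0454) and IGFBP4 (1.75 ± 0.49, adjusted p = 0.0263, with values on 5 PO and 8 LD arrays, 0.80 to 1.75 over the scalings) rose. BMPR2, a BMP receptor (1.64 ± 0.32, adjusted p = 0.00644), and its ligand BMP2 (1.31 ± 0.41, adjusted p = 0.039) rose, and TGFBR3, betaglycan, which binds inhibin, fell (−0.80 ± 0.23, adjusted p = 0.0284). In retinoid metabolism RDH10 (1.42 ± 0.42, adjusted p = 0.0304) and ALDH1A2 (1.29 ± 0.41, adjusted p = 0.0423), which make retinal and retinoic acid, rose. Counts were 4 and 0 of 17 IGF genes (median 0.43), 3 and 1 of 25 inhibin, activin and BMP genes (0.10) and 2 and 1 of 19 retinoid genes (0.26), higher and lower. The medians of the latter 2 lists, relative to all features, turned slightly below 0 under some scalings (−0.00 to 0.07 and −0.01 to 0.23). IGF calls (23.5% of those tested) numbered 1 with slide as a block and 7 without LD 1 and LD 6, and in total 1 without PO 1, PO 3 or PO 5 and 2 without PO 2, LD 2, LD 3, LD 4 or LD 5, and 1 to 4 over the scalings. Inhibin, activin and BMP calls (16% of those tested, near the 15.4% of all features) numbered 1 higher and 0 lower with slide as a block and 6 higher and 2 lower without LD 1 and LD 6, and in total 1 without PO 3 or PO 5, 2 without PO 1, LD 4, LD 7 or LD 8 and 7 without LD 1. Retinoid calls (15.8% of those tested, near the 15.4% of all features) numbered 0 higher and 0 lower with slide as a block and 4 higher and 2 lower without LD 1 and LD 6, and in total 0 without PO 5, 1 without PO 1, PO 3, LD 3 or LD 4 and 5 without LD 1, and 1 to 3 over the scalings. Of the 16 genes named for division and growth, 7 stayed called with slide as a block and 4 with each array left out in turn; 12 calls ended without PO 5, 8 without PO 3 and 7 without PO 1.

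Survival genes moved both ways. BIRC3, an inhibitor of apoptosis induced by NF-kappa-B, rose 3.89-fold (log2 change 1.96 ± 0.37 SE, limma adjusted p = 0.00591, 4 of 5 PO arrays beyond the LD range). BCL2L11, the killer protein BIM (1.61 ± 0.38, adjusted p = 0.0126), and the caspase CASP1 (1.16 ± 0.38, adjusted p = 0.0468) rose with it. BCL2L2, a guardian of the BCL2 family (−0.68 ± 0.23, adjusted p = 0.0488), and BAD, a killer of that family (−0.66 ± 0.17, adjusted p = 0.0177), fell. In glucose handling, PFKFB3, which speeds glycolysis (2.02 ± 0.45, adjusted p = 0.00992, 0.26 to 2.02 over the scalings), the glucose transporter SLC2A3 (1.91 ± 0.42, adjusted p = 0.00983, 0.68 to 1.91 over the scalings), the lipid droplet protein PLIN2 (1.54 ± 0.42, adjusted p = 0.0224, with values on 5 PO and 8 LD arrays) and the hypoxia-induced hormone STC1 (2.22 ± 0.68, adjusted p = 0.0375, with values on 5 PO and 7 LD arrays) rose. ALDOC (−1.03 ± 0.33, adjusted p = 0.0406) and PFKM (−0.70 ± 0.18, adjusted p = 0.0177) of glycolysis, P4HA2 (−0.61 ± 0.19, adjusted p = 0.0361) and BNIP3 (−0.50 ± 0.16, adjusted p = 0.0392) fell. TRIB3, a stress-induced pseudokinase (2.26 ± 0.46, adjusted p = 0.00727, 0.44 to 2.26 over the scalings), and SEL1L, of protein quality control (0.48 ± 0.14, adjusted p = 0.026), were the called genes of the endoplasmic reticulum list.

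Counts were 6 higher and 2 lower of 32 apoptosis regulators (median 0.31), 7 and 4 of 45 glycolysis and hypoxia genes (0.42) and 2 and 0 of 32 endoplasmic reticulum genes (0.12). Apoptosis calls (25% of those tested) numbered 4 higher and 1 lower with slide as a block and 7 higher and 2 lower without LD 1 and LD 6, and in total 2 without PO 5, 4 without PO 1, PO 3, LD 4 or LD 8 and 5 without LD 3 or LD 7. Glycolysis and hypoxia calls (24.4% of those tested) numbered 5 higher and 0 lower with slide as a block and 13 higher and 5 lower without LD 1 and LD 6, and in total 4 without PO 5, 5 without PO 1 or PO 3, 6 without LD 2, LD 4 or LD 5 and 7 without LD 3. Endoplasmic reticulum calls (6.25% of those tested, below the 15.4% of all features) numbered 1 with slide as a block and 4 higher and 1 lower without LD 1 and LD 6, and in total 1 without PO 1, PO 3 or PO 5, and 1 to 2 over the scalings. Among the 15 genes named for survival and metabolism, 7 stayed called with slide as a block and 4 with each array left out in turn; 11 calls ended without PO 5 and 8 each without PO 1 and PO 3.

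The remaining leading fallers have varied roles. HPD, an enzyme of tyrosine breakdown, read −9.66, −9.21, −7.40, −6.81 and −8.49 at PO and from −8.72 through a median of −3.49 to −2.61 at LD. LD 1 lay among the PO arrays, and HPD was detected on 1 of 5 PO arrays. HPD fell by 3.95 on the log2 scale (± 0.84 SE, adjusted p = 0.00888, 2 of 5 beyond), or by 0.99 to 4.02 over the scalings. MLPH, melanophilin, which links vesicles to myosin, read −6.43, −5.30, −5.75, −4.47 and −6.92 at PO and from −5.64 through a median of −2.67 to −1.60 at LD. LD 1 and LD 6 reached into the PO range. MLPH fell 6.97-fold (log2 change −2.80 ± 0.64 SE, adjusted p = 0.0108, −3.03 to −1.42 over the scalings). KCTD14 read −2.83, 0.40, −3.05, −1.75 and −2.997 at PO and from −1.02 through a median of 0.44 to 1.05 at LD. The PO arrays other than PO 2 lay below all LD arrays, and LD 6 was the lowest LD array. KCTD14 fell 5.02-fold (log2 change −2.33 ± 0.44 SE, adjusted p = 0.00591).

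FTCD, of folate and histidine metabolism (−2.84 ± 0.81, adjusted p = 0.0268), PON1, a lactonase (−2.20 ± 0.53, adjusted p = 0.0137), TNNI1, a muscle troponin (−2.37 ± 0.74, adjusted p = 0.0387, −2.55 to −1.71 over the scalings), and a proton pump subunit, ATP4B (−2.61 ± 0.85, adjusted p = 0.0444, −2.81 to −0.61 over the scalings), fell. TSGA10IP (−3.23 ± 1.01, adjusted p = 0.0381, −3.53 to −1.61 over the scalings), PHACTR3 (−2.29 ± 0.74, adjusted p = 0.0445, −2.37 to −0.29 over the scalings) and EQUCABV1R933, named as a vomeronasal receptor gene (−2.39 ± 0.61, adjusted p = 0.0161, −2.66 to −0.41 over the scalings), fell. Of these ATP4B was detected on 2 PO arrays and PHACTR3 and EQUCABV1R933 on 1 each, so the sizes are not exact. MYH1, a muscle myosin, CFAP52, of cilia, and GRIK4, a glutamate receptor subunit, were not well above background on any PO array. With the scaling used here they were at least 1.75-fold, 2.01-fold and 1.67-fold lower at PO (adjusted p = 0.00544, 0.0047 and 0.0179). For these folds each dim array counts at its lowest signal well above background or the probe's own, whichever is higher. Over the scalings the log2 changes of MYH1, CFAP52 and GRIK4 ran from −2.55 to −0.23, −2.55 to −0.27 and −2.53 to −0.31. The smallest of these changes fall short of those folds, so the folds are no lower limit under other scalings. Of the 13 fallers of this kind, 8 stayed called with slide as a block and 6 with each array left out in turn; 5 calls ended without PO 1, 5 without PO 2, 4 without PO 3 and 5 without PO 5.

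The last comparison asked where the step from LD to PO differed between theca wall and granulosa, with an interaction in a fit of all 34 arrays. Their steps differed in 5434 of 27534 features (19.7%). Of the 4115 features called in theca and present in this fit, 1386 differed from granulosa, and in 1282 of them the estimated changes of the 2 layers had opposite signs. These features were chosen for their theca change, which is part of the difference, so the choice itself favours both counts. The sign in granulosa was not tested by itself, so these counts do not show opposite regulation. Among the leading risers SST was at 0.45 in granulosa, difference 5.78 ± 1.23 SE, adjusted p = 0.00234, and NR4A2 at −0.11 in granulosa, difference 4.39 ± 1.16 SE, adjusted p = 0.00885. CALCA was at 0.79 in granulosa, difference 3.29 ± 0.99 SE, adjusted p = 0.0187, and FGF9 at −1.08 in granulosa, difference 4.05 ± 0.92 SE, adjusted p = 0.00356. PENK (3.30 in granulosa), NTS (4.45), CGA (4.86) and NR4A3 (4.06) lay higher at PO in granulosa too, and their differences were not called (adjusted p = 0.371, 0.678, 0.899 and 0.648). HSD11B1 was at 5.04 in granulosa, a difference that was not called (adjusted p = 0.227).

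CYP11A1, NR0B2 and HPD had changes of opposite sign in the layers. CYP11A1 was at 1.27 in granulosa, difference −2.13 ± 0.69 SE, adjusted p = 0.0281. Of 24 steroid genes 9 differed, 2 of them higher in the theca step, and CYB5A lay lower at PO in granulosa too (−1.26, adjusted p of the difference 0.981). NR0B2 was at 2.54 in granulosa, difference −5.54 ± 1.16 SE, adjusted p = 0.00209, and HPD at 1.44 in granulosa, difference −5.39 ± 1.17 SE, adjusted p = 0.0026. GLI1 was at −0.59 in granulosa, difference −3.40 ± 0.93 SE, adjusted p = 0.0112, and PTCH1 and HHIP lay higher at PO in granulosa (0.78 and 1.34; adjusted p of the differences 0.0082 and 0.00746). Of the 56 respiratory chain genes 38 differed, all lower in the theca step, with a granulosa median of 0.43, and of 38 cholesterol genes 13 differed the same way (granulosa median 0.64). Proteasome genes differed in 19 of 36 (granulosa median 0.32). Cell division genes differed the other way in 61 of 79, with a granulosa median of −2.76; MKI67 was at −3.72 in granulosa, difference 4.96 ± 0.97 SE, adjusted p = 0.00133. Among leukocyte and endothelial markers 6 of 43 and 5 of 39 differed, all higher in the theca step and a smaller share than among all features (19.7%).

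The 5 theca calls with the smallest interaction p were TNFAIP3 (−1.90 in granulosa, difference 3.70 ± 0.51 SE, adjusted p = 0.000324), TMEM53 (−0.91 in theca, 1.39 in granulosa, difference −2.30 ± 0.33 SE, adjusted p = 0.000324) and 3 probes without a gene symbol. The probe A_69_P086861 was at 0.95 in theca and −1.53 in granulosa. The probes A_69_P107572 and A_69_P107571, shifted copies on the same transcript, were at −0.86 and −0.85 in theca and 1.52 and 1.48 in granulosa, and so count as 1 signal. Both stages of a layer shared slides, and apart from LD 2 and LD 8 of theca the layers lay on different slides.

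**Figure D5:**
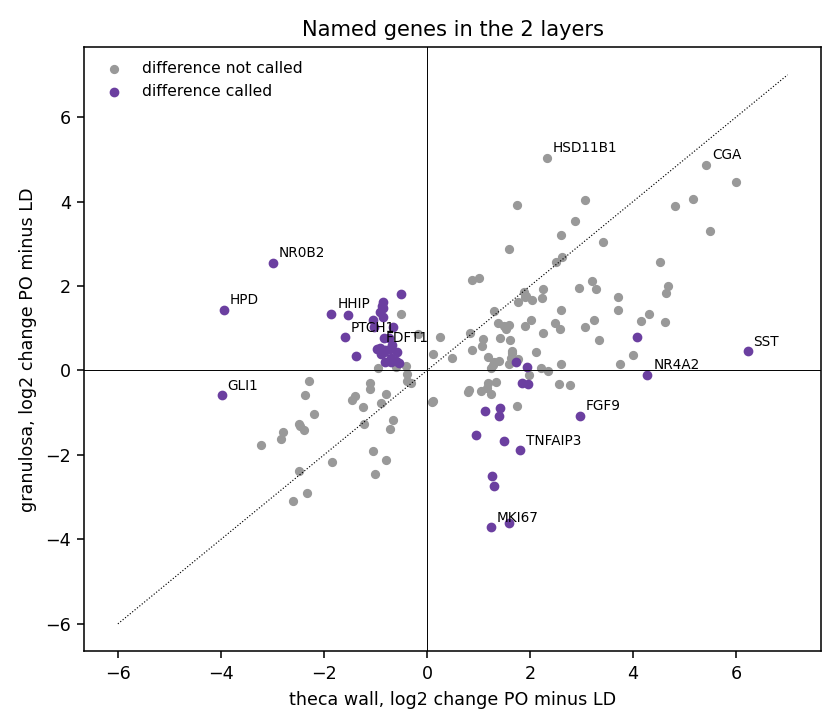
Each point is a gene named in the text, with its log2 change from LD to PO in theca wall (x axis) and in granulosa (y axis); purple points are the 49 genes whose steps differed between the layers at an adjusted p under 0.05 and the dotted line marks equal change. SST and NR4A2 lie near 0 in granulosa, MKI67 rises in theca and lies at −3.72 in granulosa, and NR0B2 and HPD fall in theca and lie above 0 in granulosa.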

How the data were processed

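The deposited scanner files hold, per spot, the processed signal intensity (gProcessedSignal) that the authors' software, Agilent Feature Extraction 9.1 per the submitters' processing notes, made by background subtraction. Per the labels' protocols, RNA was amplified from oligo(dT) primers, so signal depends on intact 3′ ends. The authors also deposited a log2 value table. Against the scanner values it matched the log2 of mean spot signal, quantile-normalized and with no background taken off (r = 0.999995, largest difference 0.0329), with column medians of 7.40 to 7.41, no centring of genes and the direction of signal, and served as an alternative.

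Here log2 processed signal minus the array's 75th percentile was used. Controls and spots flagged as outliers were dropped, and spots of a probe averaged. Probes detected (well above background) on 5 or more of the 19 theca arrays were kept and each gene was read by its brightest probe, while probes without a symbol stood alone. Of 43603 probes, 22966 had a symbol, from the files or the RefSeq gene table, 825 only a locus number and 19812 neither. Limma 3.58.1 (R 4.3.3, lmFit and eBayes) tested PO minus LD with Benjamini-Hochberg adjustment, threshold 0.05, after a test on simulated data. The interaction with granulosa used all 34 arrays. Whether replicates are separate mares is not stated beyond the design text, so p-values measure the spread between these samples.

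Genes named are the 15 largest rises and 15 largest falls with a symbol (detected on at least 4 arrays of the brighter stage), a fixed list, up to 4 called members per direction of each of 35 gene lists (or the member with the smallest p where none was called), and the 5 features with the smallest interaction p. For HSD3B1 no value was used here, and 4 other genes that the rule picks are not reported here. Members and lists were chosen with earlier results of these data known. A list is described by its counts and median beside those of all features. Some lists share genes, and a shared gene counts in each. A list's summed level is log2 of its members' added signal. Alternatives covered scaling, background, dim-probe filter, slide, arrays fitted, array weights and each array left out.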

Additional observations from a re-analysis of the deposited data

Results flagged for a closer look

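Of the genes named, 49 had a step from LD to PO that differed between theca wall and granulosa by the interaction test over 34 arrays (limma adjusted p under 0.05). The theca step minus the granulosa step, in log2 units, was above 0 for SST (5.78), RACGAP1 (5.19), MKI67 (4.96), NR4A2 (4.39), FGF9 (4.05), ALDH1A2 (4.04), FOXM1 (3.78), TNFAIP3 (3.70) and CALCA (3.29). It was also above 0, by less, for F11R (3.16), CDCA5 (2.48), A_69_P086861 (2.48), RDH10 (2.31), BIRC3 (2.28), GLI3 (2.15), FBLN1 (2.09), HAPLN3 (1.86) and IRF8 (1.70). It was below 0 for NR0B2 (−5.54), HPD (−5.39), GLI1 (−3.40), HHIP (−3.20), TSC22D3 (−2.85), HSD17B4 (−2.49), A_69_P107572 (−2.38), PTCH1 (−2.38), A_69_P107571 (−2.32), BNIP3 (−2.31), TMEM53 (−2.30), LOXL4 (−2.24), CYP11A1 (−2.13), ALDOC (−2.06) and FDXR (−1.73). The smaller negative differences were those of BAD (−1.68), EBP (−1.60), SDHA (−1.52), MVD (−1.48), FDFT1 (−1.46), NDUFS3 (−1.30), BCL2L2 (−1.29), GSTM3 (−1.27), NDUFA9 (−1.22), NDUFS6 (−1.196), SCAP (−1.02), PSMD1 (−1.02), PSMD14 (−0.98), PFKM (−0.89), PSMA3 (−0.83) and PSMC5 (−0.74).

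Single arrays that stood apart from the others of their stage were looked for in 335 sets of values, and 22 were found. Chance alone gives about 1 in 20, and 22 of 335 is near that share. The same arrays recur across genes, so the sets are not independent. LD 6 was the highest of its stage in NR4A3 (−3.62), NR4A2 (1.55), DUSP1 (2.18), PER1 (0.63), AREG (−3.48) and CDCA5 (−3.75) and the lowest of its stage in GLI1 (−3.76), CFAP52 (−8.33) and KCTD14 (−1.02), given as log2 levels. LD 1 was the highest of its stage in ADAMTS5 (−2.59) and the lowest of its stage in FDFT1 (2.46) and ALDOC (−0.84), and LD 2 was the highest of its stage in MMRN1 (−0.29). PO 4, hybridised on the same slide as LD 6, was the highest of its stage in PHACTR3 (−5.45), LHCGR (−2.52) and CLDN1 (−6.05) and the lowest of its stage in CGA (1.88) and FGF7 (−2.53). PO 2 was the highest of its stage in NDUFS3 (2.10) and the lowest of its stage in ALKAL2 (−9.09) and ADAMTS4 (0.53), and PO 5 was the lowest of its stage in FDFT1 (1.82). The cause was not tested.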

How the results depend on the processing

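The 4116 calls became 2658 when only the 14 arrays were fitted, 1998 with all 34, 1767 with slide as a fixed block, 1838 with LD arrays of shared slides only, 9259 with array weights, 7226 without LD 1 and LD 6 (chosen after seeing the data) and 2151 when a change above 1 log2 unit was also required. Single arrays left out gave 1316 (without PO 5) to 5884 (without LD 6); 2072 without PO 1 and 2309 without PO 3 were the other counts moved by over 1.5 times downward. The share of higher calls, 55.1%, was 42.3% in the deposited values, 42.4% after normexp, 42.3% after median centring and 46.6% after quantile normalization. The 5434 differences from granulosa stayed within 1.5 times of that count under the few alternatives run for that test. These were quantile normalization, median centring, the deposited values, slide as a fixed block and eBayes with its trend and robust options. That test was not run with arrays left out or with array weights. Of the 153 called genes named, 43 were called in all 31 settings and 0 reversed; the slide block ended 80 calls and leaving out PO 5 ended 91 of 152. No paired analysis was possible because replicate numbers were given in accession order and pair no samples.

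Among genes not called, 5 changed sign. FSHR was at −0.20 with quantile normalization, −0.00075 with normexp, −0.096 in the deposited values, −0.37 with all 34 arrays, −0.12 without slide 7, −0.014 with array weights and −0.13 over its probes' median, and −0.058 to 0.34 with single arrays left out. The value with all 34 arrays is that of the other FSHR probe, which was the brighter over those arrays. INHBA ran from −0.25 to 0.26 with single arrays left out and was −0.013 without LD 1 and LD 6. PTGES was at 0.032 with quantile normalization, 0.060 with normexp, 0.055 in the deposited values, 1.19 over its probes' median and −0.35 to 0.11 with single arrays left out. VEGFA was at −0.0010 with normexp. ACTA2 was at −0.065 with slide as a block, −0.023 without slide 7 and −0.11 to 0.44 with single arrays left out. The cause of the other sign changes was not tested.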

Other observations

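In theca wall the step before, from early to late dominant, had 10 called features of 26742, in a comparison that shares the LD arrays.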
